A study of Mus musculus with 4 samples.

Results

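The circadian clock core genes examined here are 10 genes, Cry1, Cry2, Per1, Per2, Per3, Arntl, Clock, Nr1d1, Nr1d2 and Dbp, taken by symbol from the 21862 genes that each library lists once. The set was picked from measured values, in that the FPKM of Cry1 was already known to change in opposite directions with matrix stiffness in 2 cell populations, so the values of Cry1 in all 4 libraries are given as a description. RNA was sequenced from N31 cells, a line of mouse neural progenitor cells (NPCs) that was differentiated from iPSCs and carries Dox-inducible OKMS reprogramming transgenes, a CAG-driven rtTA and ires-BSDpA in Oct4, and from N31 cells that also express the short hairpin RNA shSrf#1 (shSrf NPCs). Both populations were kept without EGF and bFGF on type I collagen-coated matrices of 0.5 kPa or of 12 kPa. The comparison addresses how stiffness and the transcription factor Srf alter gene expression in these cells. Each of the 4 conditions was 1 library, so the spread between replicates is unknown and no p-value is given. Neither the labels nor the methods name a vector in the control cells, and the hour of harvest and of the last medium change are not given in the sources used here.

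The mammalian clock is a feedback loop of transcription that runs in most cell types, also in culture. The activators Clock and Arntl (Bmal1) pair and bind E-boxes in the Per, Cry, Nr1d1, Nr1d2 and Dbp genes. The PER and CRY proteins then repress that pair, while the nuclear receptors encoded by Nr1d1 and Nr1d2 (REV-ERBs) repress Arntl, Clock and Cry1 through ROR response elements (ROREs). DBP is an output of the loop that binds D-boxes in other genes, the Per genes among them. In cells whose clocks are not aligned with each other, a bulk level averages over all phases of the rhythm.

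Promoter windows from RefSeq (GRCm38.p6, the patch release of mm10), from 250 bases before to 50 bases after a transcription start, were held for 9 of the 10 genes in 13 windows, and not for Per2. Those of Cry1, Arntl and Per3 are shown because they match an E-box, a RORE and a D-box, the classes of element described above, with the matches in capitals. The Cry1 window lies on the minus strand at chr10:85185005-85185304 and holds an E-box (CACGTG) at positions -60 to -55 from the start and an E'-box (AACGTG) at -79 to -74.
Cry1: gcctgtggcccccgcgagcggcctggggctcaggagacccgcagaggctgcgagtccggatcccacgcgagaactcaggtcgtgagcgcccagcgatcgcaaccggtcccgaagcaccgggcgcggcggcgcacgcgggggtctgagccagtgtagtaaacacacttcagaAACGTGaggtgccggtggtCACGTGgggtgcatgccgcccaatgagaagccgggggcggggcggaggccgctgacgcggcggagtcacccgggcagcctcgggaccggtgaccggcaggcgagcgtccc
The Arntl window, 1 of its 2 windows and at a start inside the annotated gene, lies on the plus strand at chr7:113207261-113207560, and its RORE occupies positions 27 to 37.
Arntl: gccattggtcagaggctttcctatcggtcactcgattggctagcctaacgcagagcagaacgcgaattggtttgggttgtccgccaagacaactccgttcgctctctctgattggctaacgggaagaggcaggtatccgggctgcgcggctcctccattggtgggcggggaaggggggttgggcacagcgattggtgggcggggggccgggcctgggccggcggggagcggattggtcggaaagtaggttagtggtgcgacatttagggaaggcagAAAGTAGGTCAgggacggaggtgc
The Per3 window lies on the minus strand at chr4:151044616-151044915 and holds the D-box TTATGTAA at positions -205 to -198 and again at -158 to -151.
Per3: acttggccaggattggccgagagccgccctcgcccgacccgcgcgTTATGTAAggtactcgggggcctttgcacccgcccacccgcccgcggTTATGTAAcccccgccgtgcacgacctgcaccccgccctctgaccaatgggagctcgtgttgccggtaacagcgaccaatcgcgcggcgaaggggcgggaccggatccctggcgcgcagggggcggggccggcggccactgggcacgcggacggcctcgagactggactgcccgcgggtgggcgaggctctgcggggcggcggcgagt
Both strands were searched, and the E-box and E'-box matches of Cry1 did not overlap. An E-box was present in 7.15% of all 32851 windows, and among the clock genes in those of Cry1 and Per1. An E'-box, CACGTT or AACGTG, was present in 4.68% of windows, and in those of Cry1, Cry2 and Nr1d1. A D-box (TTATGTAA, TTACATAA or TTACGTAA) was present in 1.06% and a RORE in 0.384%, and no clock gene other than Per3 and Arntl, respectively, held one. The cyclic AMP response element TGACGTCA (1.79% of windows) and the CArG box that Srf binds (1.63%) matched no window of a clock gene. Such matches describe letters in these windows and not the binding of a factor.

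The deposited values are FPKM, the reads of a gene scaled to transcript length and to the reads mapped in each library. By the steps between low values the depth of the libraries, relative to control NPCs at 0.5 kPa, was 0.829 for control NPCs at 12 kPa and 1.55 and 2.14 for shSrf NPCs at 0.5 and 12 kPa. The clock genes then rest on an estimated 118 to 5120 reads, which gives counting errors of their log2 ratios between 0.031 and 0.18 and leaves out the spread between cultures and between library preparations. Srf had an FPKM of 34.4 and 35.6 in control and 16.2 and 17.4 in shSrf NPCs at 0.5 and 12 kPa. Of 10 NPC markers 5 to 6 were above an FPKM of 2 in each library, while Sox1, Hes5 and Olig2 were listed at 0 in all 4, and 5 to 6 of 6 mesenchymal, 4 of 6 neuron and 1 of 5 astrocyte markers were above 2. Within these lists the markers did not move together between the populations. Of the neuron markers, Stmn2 had an FPKM of 19.1 and 18.7 in control and 64.6 and 61.3 in shSrf NPCs at 0.5 and 12 kPa and Map2 29.9 and 35.1 against 51.7 and 50, while Tubb3 was between 2.63 and 3.93, Syt1 between 2.03 and 2.66, and Rbfox3 was listed at 0. Of the NPC markers, Nes was lower in shSrf NPCs (16.4 and 15.5 against 51.6 and 36.1) and Sox2 higher (19.1 and 20.4 against 4.29 and 5.49). The mesenchymal marker Acta2, a known target of Srf, was at 321 and 322 in control and 6.74 and 8.96 in shSrf NPCs. The summed FPKM in control and shSrf NPCs was 1535 to 1765 and 2429 to 2445 for the NPC list, 54.9 to 59.0 and 117 to 122 for the neuron list, 25.0 to 25.4 and 28.4 to 33.2 for the astrocyte list, and 2579 to 2741 and 2393 to 2469 for the mesenchymal list. Single genes made up most of some sums. For the NPC list this was Vim, at 1696 and 1481 in control and 2380 and 2396 in shSrf NPCs. For the mesenchymal list it was Col3a1 (1730 and 1584 against 1897 and 1908), and for the astrocyte list Aldoc (24.3 to 32.8). The part of these differences in the ratios between the populations was not tested. In bulk RNA, fewer cells of a type and less RNA per cell cannot be told apart.

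The clock genes were expressed at low to moderate levels, and 9 of the 10 passed the minimum of an FPKM above 2 in all 4 libraries that the study used (10489 genes). On the soft matrix (0.5 kPa) the highest levels in control NPCs were those of Arntl (20.2) and Per1 (16.1), close to the median of 21.9 over all genes that passed. Cry2 (8.84), Cry1 (8.21), Nr1d2 (7.26), Nr1d1 (5.6) and Clock (4.49) followed, and Dbp (3.15), Per3 (2.99) and Per2 (0.927) were lowest. The 95% counting intervals of Cry1 (7.60 to 8.85) and Cry2 (8.29 to 9.41) overlapped, as did those of Dbp (2.66 to 3.71) and Per3 (2.74 to 3.26), so the order within these pairs is not resolved by the reads. In shSrf NPCs on the 12 kPa matrix the order was Per1, Arntl, Cry2, Dbp, Nr1d1, Nr1d2, Cry1, Clock, Per2 and Per3, so that Cry1 stood lower and Dbp higher in it. The highest of the 4 values was 5.78 times the lowest for Cry1, 2.85 times for Per2, 2.29 times for Dbp and 1.66 times for Nr1d2. For Arntl and Per3 it was 1.5 times, and for Clock, Nr1d1, Per1 and Cry2 it was 1.38, 1.31, 1.19 and 1.11 times. Over all genes that passed the minimum, this quotient had a median of 1.32 and a 95th percentile of 2.26.

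**Figure D1:**
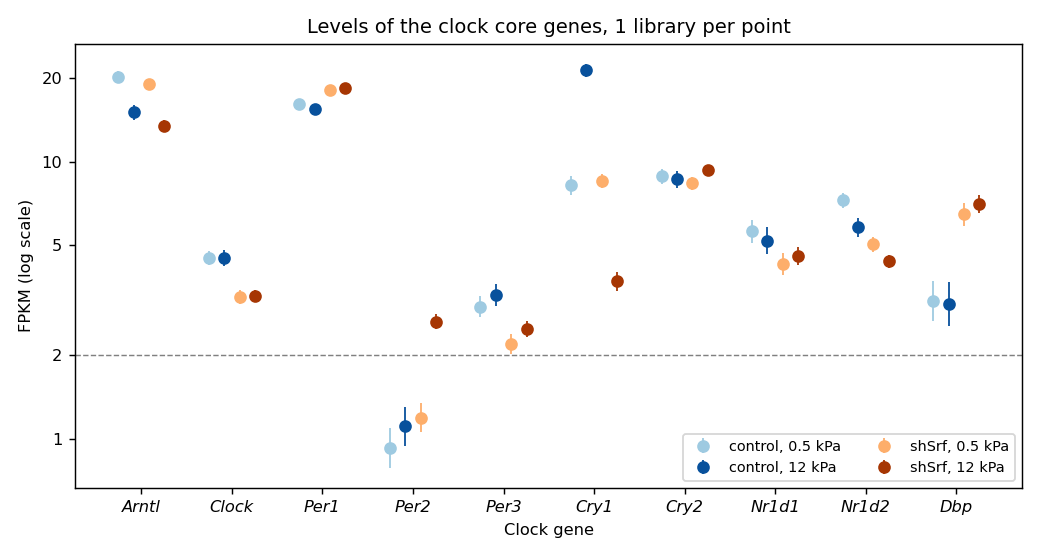
FPKM (log axis) of each clock core gene in the 4 libraries, with 95% Poisson intervals from estimated reads and a dashed line at the minimum of 2. Cry1 ranges from 3.70 to 21.4, Per2 exceeds 2 only in shSrf NPCs at 12 kPa, and Cry2 stays between 8.35 and 9.31.

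On the 12 kPa matrix, control NPCs had more Cry1 and Per3 and less Arntl and Nr1d2 mRNA than on the 0.5 kPa matrix by over 1.1-fold, the threshold of the study. Of the 9 clock genes above the minimum, 2 were higher, where 17.9% of all genes were, and 2 were lower, where 16.9% were. In shSrf NPCs, Cry2 and Per3 were higher (17.6% of all genes) and Cry1, Arntl and Nr1d2 were lower (13.0%). With so few members, counts of 2 or 3 of 9 are near the background, and the median log2 ratio of the clock genes was -0.037 in control and 0.012 in shSrf NPCs, beside 0.0030 and 0.0064 over all genes.

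Cry1 encodes one of the CRY proteins that bind the Clock and Arntl pair and block its activity. The gene spans bases 85131700 to 85185054 of chromosome 10 (mm10, minus strand). Its FPKM was 8.21 at 0.5 kPa and 21.4 at 12 kPa in control NPCs, and 8.50 and 3.70 in shSrf NPCs. The populations were thus alike on the soft matrix and lay on either side of that level on the stiff one. Between the stiff and the soft matrix the log2 ratio was 1.38 in control (2.61-fold higher, counting error 0.067) and -1.20 in shSrf NPCs (2.30-fold lower, counting error 0.072). The difference of 2.58 between the ratios ranked 1 among the 10489 genes, which is how Cry1 came to attention. Past 2-fold in either direction were 0.229% of all genes in control and 0.0858% in shSrf NPCs, 2 genes were past it in both, and Cry1 was the 1 gene of these with opposite directions. Opposite directions past 1.1-fold were seen in 6.01% of all genes, and Cry1 was the 1 clock core gene among them. These ratios share no library. The estimated reads of Cry1 were 672 and 1452 in control and 1078 and 649 in shSrf NPCs at 0.5 and 12 kPa. With bins of GC content centred, the ratios remained 1.40 and -1.21.

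**Figure D2:**
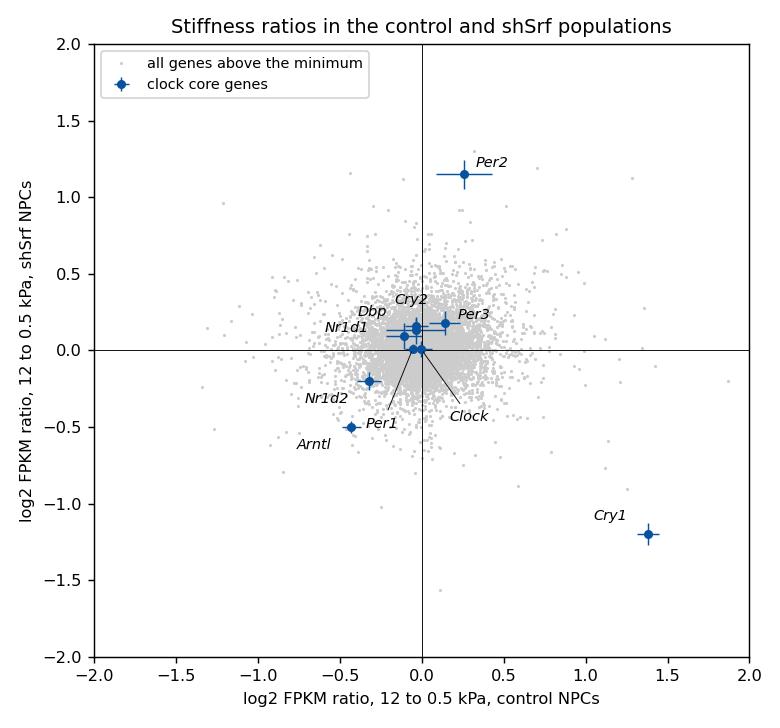
Log2 FPKM ratio of 12 to 0.5 kPa in control NPCs (horizontal) and in shSrf NPCs (vertical) for all genes above the minimum (grey) and the 10 clock core genes (blue, bars give the counting error). Cry1 lies apart from the other clock core genes at 1.38 and -1.20, Arntl and Nr1d2 are below 0 on both axes, and Per2 is at 0.26 and 1.15.

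The genes beside Cry1 did not share its pattern. Mterf2, which ends 3672 bases away, had an FPKM of 13.9 and 13.1 in control and 14.5 and 13.6 in shSrf NPCs at 0.5 and 12 kPa, and its stiffness ratios were -0.087 and -0.094. On the other side the nearest annotated gene is a pseudogene, Psma5-ps, whose values were not used here. Beyond it, at 199916 bases, Btbd11 had an FPKM of 2.75 and 2.38 in control and 2.46 and 2.49 in shSrf NPCs.

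Among all genes above the minimum, the pattern nearest to that of Cry1 was sought by the Euclidean distance between log2 FPKM values, each centred over the 4 libraries. Among the nearest were Tmem159 at a distance of 0.817, D3Ertd751e at 0.966, Aspn at 0.975 and 2210013O21Rik at 0.993, where the median gene was 1.81 away. Tmem159 had an FPKM of 9.14 and 21.8 in control and 14.1 and 7.52 in shSrf NPCs. Aspn, which encodes the matrix protein asporin, was at 2.77 and 5.26 in control and at 2.37 and 2.2 in shSrf NPCs. D3Ertd751e had 5.96 and 7.69 in control and 3.29 and 2.70 in shSrf NPCs, and 2210013O21Rik 35.1 and 81.4 against 39.2 and 34.0. These 4 genes were highest in control and lowest in shSrf NPCs at 12 kPa, as Cry1 was, and they were chosen for that likeness over 4 libraries.

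**Figure D3:**
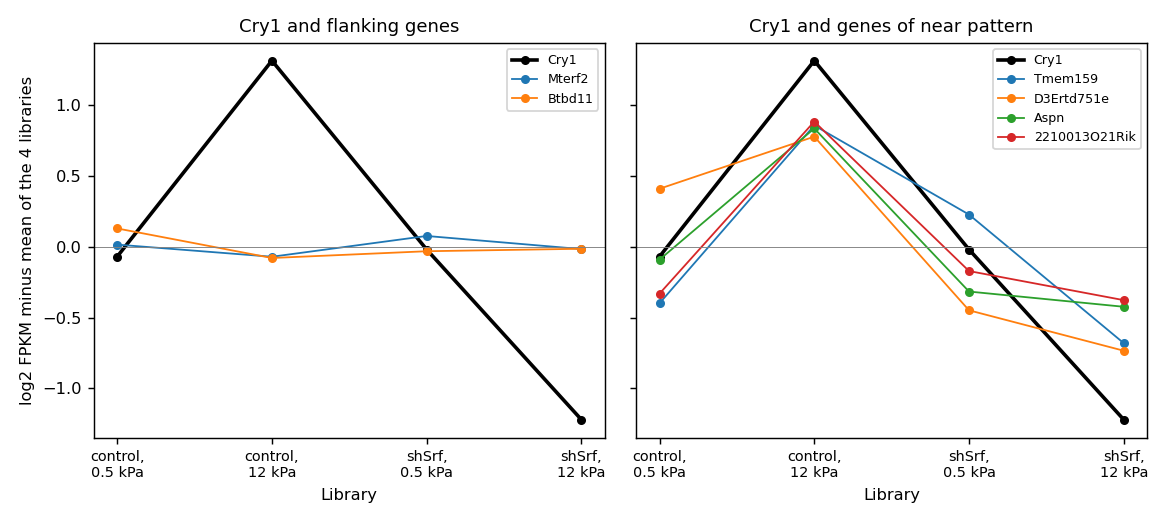
Log2 FPKM of each gene minus its mean over the 4 libraries (horizontal axis), for Cry1 with its flanking genes Mterf2 and Btbd11 (left) and with 4 genes of near pattern (right). The flanking genes stay near 0, and the 4 genes, which were chosen for their likeness, share the peak in control NPCs at 12 kPa.

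Cry2, the paralog of Cry1 with the same role in repression, varied least among the clock core genes. The gene spans chr2:92403646-92434085 of mm10 (minus strand). Its FPKM was 8.84 and 8.65 in control and 8.35 and 9.31 in shSrf NPCs at 0.5 and 12 kPa. Its log2 stiffness ratio was -0.032 in control and 0.16 in shSrf NPCs, with counting errors of 0.069 and 0.049. With bins of GC content centred the latter was 0.11, within 1.1-fold.

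Of the activators, Arntl (chr7:113178471-113314126, plus strand) was lower on the stiff matrix in both populations and Clock (chr5:76209868-76305603, minus strand) was not. The FPKM of Arntl was 20.2 and 15.1 in control and 19.1 and 13.5 in shSrf NPCs at 0.5 and 12 kPa, so both libraries from 12 kPa lay below both from 0.5 kPa. The log2 ratio was -0.43 in control (1.34-fold lower) and -0.50 in shSrf NPCs (1.41-fold lower), with counting errors of 0.058 and 0.042. Among lower genes these ratios ranked 232 in control and 57 in shSrf NPCs, of 10489 genes in all. Of the genes above the minimum, 3.24% were lower by over 1.1-fold in both populations, and among the clock genes these were Arntl and Nr1d2. Clock had an FPKM of 4.49 and 4.48 in control and 3.25 and 3.28 in shSrf NPCs, log2 ratios of -0.0046 and 0.010 with stiffness.

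The REV-ERB genes Nr1d1 (chr11:98767932-98775377) and Nr1d2 (chr14:18204056-18239106), both on the minus strand, had unlike values. Nr1d2 had an FPKM of 7.26 and 5.81 in control and 5.04 and 4.37 in shSrf NPCs at 0.5 and 12 kPa, with log2 stiffness ratios of -0.32 and -0.20. Nr1d1 had 5.6 and 5.19 in control and 4.27 and 4.57 in shSrf NPCs, and its ratios of -0.11 and 0.097 were within 1.1-fold and within their 95% counting intervals of 0. Nr1d1 overlaps Thra over 1075 bases. Thra, a thyroid hormone receptor gene, had an FPKM between 55.9 and 72.9, above Nr1d1 in each library. The libraries were made with a kit that keeps the strand, but whether strand was used in counting is not given in the sources used here, so reads of these genes may not be fully separated.

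The Per genes encode the partners of CRY, and span chr11:69095108-69109965 (Per1), chr1:91415977-91459351 (Per2) and chr4:150997018-151044707 (Per3). Per3 had an FPKM of 2.99 and 3.29 in control and 2.19 and 2.48 in shSrf NPCs, and its stiffness ratios of 0.14 and 0.18 were past 1.1-fold in both populations, as for 5.10% of all genes. The ratio in control was at the edge of the threshold, and with a pseudocount of 1 both fell within it (0.11 and 0.12). Per1 had 16.1 and 15.5 in control and 18.2 and 18.4 in shSrf NPCs, with ratios of -0.054 and 0.012. Per2, a target of cAMP and serum signals as well as of the clock, was below the minimum in 3 libraries with an FPKM of 0.927, 1.11 and 1.19 and reached 2.64 in shSrf NPCs at 12 kPa. Its stiffness ratio was 0.26 in control, where the counting error was 0.17, and 1.15 in shSrf NPCs (2.21-fold higher, counting error 0.095). With a pseudocount of 1 the latter was 0.73. Per2 was left out of the counts above because it passed the minimum in 1 library only, the one in which it was highest.

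Dbp (chr7:45705100-45710203, plus strand) encodes the D-box-binding output of the clock. It had an FPKM of 3.15 and 3.07 in control and 6.46 and 7.04 in shSrf NPCs at 0.5 and 12 kPa. Both shSrf libraries were above both control libraries, and stiffness made little difference, with log2 ratios of -0.037 and 0.13. Neither ratio was past 1.1-fold.

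Between shSrf and control NPCs at the same stiffness, Dbp and Per1 were higher and Per3, Clock, Nr1d1 and Nr1d2 were lower at both stiffnesses by over 1.1-fold. The same held for 30.3% of all genes (higher) and 28.8% (lower), since most genes differed between the populations. At 0.5 kPa, 2 of the 9 clock genes were higher and 4 lower, beside 37.4% and 35.7% of all genes. At 12 kPa, 2 were higher and 6 lower, beside 37.6% and 35.9%, and the lower ones included Cry1 and Arntl. With GC content centred, 6 of the 9 genes in all were past 1.1-fold at 12 kPa instead of 8. The median log2 ratio of the 9 genes was -0.085 at 0.5 kPa and -0.18 at 12 kPa, and that of all genes was 0.011 and 0.0098.

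Dbp was the 1 clock core gene past 2-fold at 0.5 kPa, with a log2 ratio of shSrf to control of 1.03 (2.05-fold, counting error 0.14). At 12 kPa Dbp had 1.2 (2.29-fold). Past 2-fold were 5.31% of all genes at 0.5 kPa and 4.96% at 12 kPa. Among the clock core genes above the minimum, Cry1 was the other one past 2-fold at 12 kPa, with a log2 ratio of -2.53 (5.78-fold lower). Its ratio at 0.5 kPa was 0.051. Clock had -0.47 and -0.45 and Per3 -0.45 and -0.41 at 0.5 and 12 kPa, so that their ratios were alike on both matrices. Nr1d2 had -0.53 and -0.41, and Nr1d1 had -0.39 and -0.18. Arntl had -0.085 and -0.16, and Per1 0.18 and 0.25. Per2, which control NPCs expressed below the minimum, had 0.37 and 1.25, the latter also past 2-fold (2.38-fold, counting error 0.13).

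The ratios of shSrf to control NPCs moved with base composition, from a median of -0.18 in the tenth of genes with the lowest GC content of the transcript to 0.22 in the tenth with the highest on the soft matrix. On the stiff matrix these medians were -0.28 and 0.35. For the stiffness ratios the same medians were -0.06 and 0.096 in shSrf NPCs and 0.029 and -0.039 in control NPCs. The Spearman correlation of the stiffness ratio with GC content was 0.34 in shSrf and -0.128 in control NPCs. For the difference between these ratios it was -0.336, and for shSrf against control 0.265 at 0.5 kPa and 0.412 at 12 kPa. The stiffness ratios, mainly those in shSrf NPCs, were thus not free of base composition. The transcript of Dbp has a GC content of 61.7%, that of Per1 59.4%, and those of Nr1d2 and Clock 41.8% and 41.6%. When each bin of GC content was centred, the ratios of shSrf to control for Dbp were 0.83 and 0.83 at 0.5 and 12 kPa. Those of Clock were -0.28 and -0.20 and those of Nr1d2 -0.34 and -0.15. Per1 then had 0.0063 and -0.035 and was within 1.1-fold, while Nr1d1, at 56.8%, had -0.54 and -0.38. Dbp overlaps Sphk2, a sphingosine kinase gene on the other strand, over 741 bases. The FPKM of Sphk2 was 15.1 and 11.9 in control and 20.1 and 24.3 in shSrf NPCs, also higher in the latter, and its part in the values of Dbp was not tested.

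**Figure D4:**
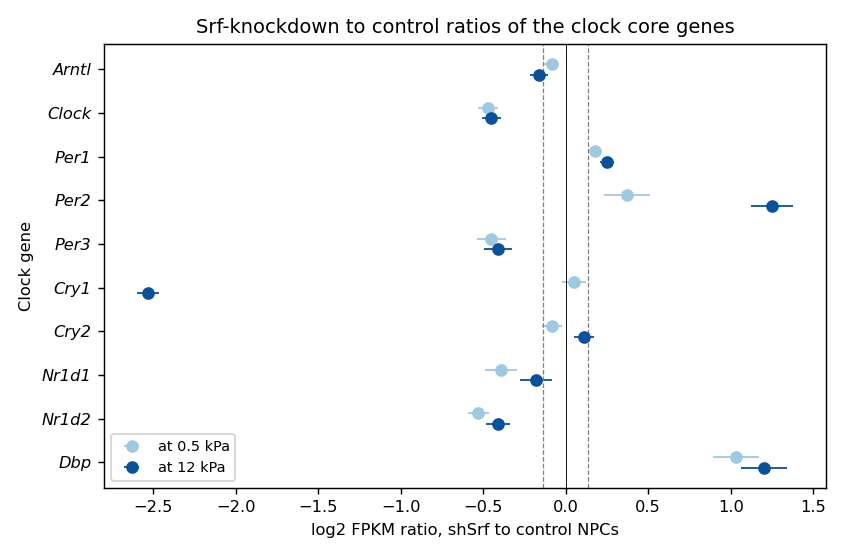
Log2 FPKM ratio of shSrf to control NPCs at 0.5 kPa (light) and 12 kPa (dark) for each clock core gene, with the counting error as bars and dashed lines at 1.1-fold. Most genes have similar ratios on both matrices, while Cry1 is at 0.051 and -2.53 and Per2 at 0.37 and 1.25.

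Of 28 further clock genes (activators, ROR receptors, repressors, D-box factors, kinases, ubiquitin ligases and outputs), 20 were above the minimum. With stiffness, 3 of the 20 were higher (Ciart, Tef and Csnk1d) and 6 lower in control NPCs, and 0 were higher and 4 lower (Arntl2, Bhlhe40, Ciart and Csnk2b) in shSrf NPCs. Over all genes the shares were 17.9% higher and 16.9% lower in control and 17.6% and 13.0% in shSrf NPCs. Between shSrf and control NPCs, 8 were higher and 6 lower at 0.5 kPa, and 8 were higher and 7 lower at 12 kPa, beside 37.4% and 35.7% of all genes at 0.5 kPa and 37.6% and 35.9% at 12 kPa. Their median log2 ratio was between -0.031 and 0.030 in the 4 comparisons, where that of all genes was between 0.0030 and 0.011.

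Arntl2, a paralog of Arntl that can pair with Clock, had an FPKM of 6.06 and 4.94 in control and 13.9 and 12.1 in shSrf NPCs at 0.5 and 12 kPa. It was lower on the stiff matrix in both populations (log2 ratios of -0.29 and -0.20), as Arntl was, and higher in shSrf NPCs by 1.19 and 1.29, which Arntl was not. Npas2, the paralog of Clock, was between 0.0831 and 0.143, too low to compare.

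Among repressors outside the core, Ciart (Chrono), which interacts with Arntl and represses the activator pair, had an FPKM of 3.54 and 4.95 in control and 2.97 and 2.37 in shSrf NPCs. Its stiffness ratios of 0.48 and -0.32 had opposite directions, as those of Cry1, at counting errors of 0.15 and 0.13. Opposite directions past 1.1-fold were seen in 6.01% of all genes, and in 1 of the 20 further clock genes above the minimum, Ciart. At 12 kPa the ratio of shSrf to control was -1.06. Bhlhe40 (Dec1), a repressor that competes for E-boxes, had 31.6 and 24.7 in control and 35.0 and 31.4 in shSrf NPCs and was lower on the stiff matrix in both, by -0.35 and -0.16. Bhlhe41 (Dec2) was between 0.255 and 0.411.

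Tef, which binds D-boxes as Dbp does, had an FPKM of 18.5 and 27.4 in control and 31.8 and 30.9 in shSrf NPCs at 0.5 and 12 kPa. Its level in control NPCs at 0.5 kPa was below the other libraries, with a stiffness ratio of 0.57 in control and -0.037 in shSrf NPCs. Nfil3, which represses at D-boxes, had 16.6 and 14.2 in control and 22.8 and 22.5 in shSrf NPCs, a log2 ratio of shSrf to control of 0.46 and 0.66. 
Examples from the other lists are given by range or value, and were chosen after their values were seen. Of the ROR receptors, which activate at the RORE, Rora was between 0.480 and 0.672 and Rorb was at most 0.192, both low. Hlf, a D-box activator like Dbp and Tef, was at most 0.197. Csnk1d and Csnk1e, kinases that phosphorylate PER, were between 121 and 133 and between 49.0 and 54.9. The F-box gene Fbxl21, whose product targets CRY proteins for ubiquitination, had 4.38 and 4.65 in control and 2.89 and 3.13 in shSrf NPCs, a log2 ratio of shSrf to control of -0.60 and -0.57. It was thus lower in shSrf NPCs on either matrix. Of the other listed ubiquitin ligase genes reported here, Btrc went the other way, at 0.30 and 0.32, and Fbxw11 was within 1.1-fold. Usp2, on the same list but not above the minimum, was lower in shSrf NPCs as Fbxl21 was, by -1.13 and -0.45. Nampt, an enzyme of NAD synthesis, and Wee1, a cell cycle kinase, are outputs of the clock. The log2 ratio of shSrf to control at 0.5 and 12 kPa was -0.45 and -0.56 for Nampt and -0.31 and -0.35 for Wee1, and both genes were within 1.1-fold with stiffness. Por, another listed output above the minimum, was higher in shSrf NPCs instead, by 0.17 and 0.53. The GC content of the transcript was 43.8% for Fbxl21, 40.3% for Nampt, 51.5% for Wee1 and 58.3% for Por. The part of base composition in these ratios was not tested.

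**Figure D5:**
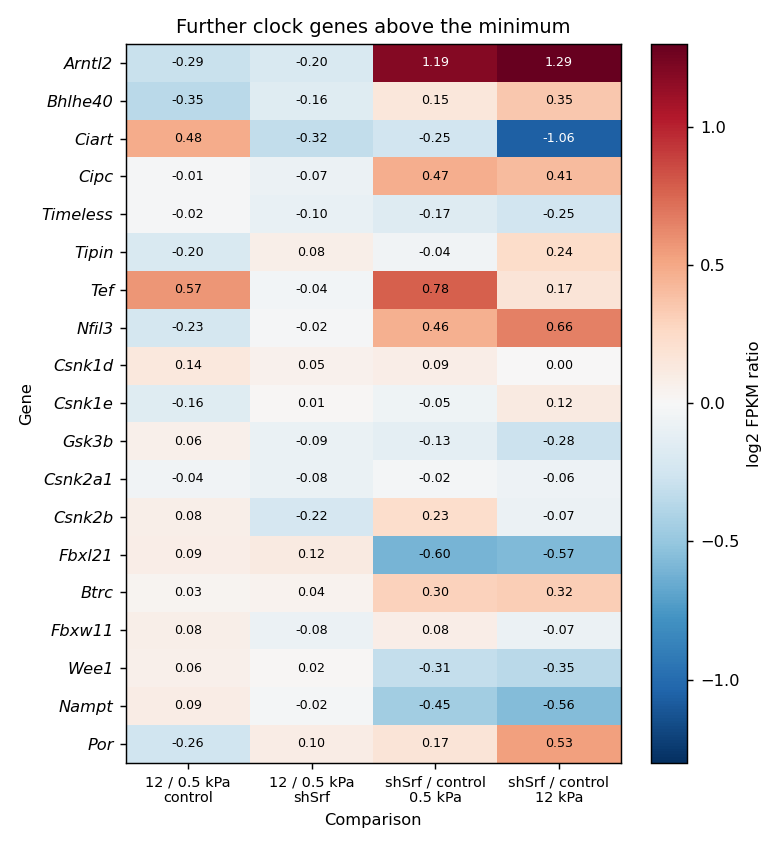
Log2 FPKM ratios of further clock genes above the minimum in the 4 comparisons, printed in each cell (blue, lower; red, higher). Arntl2 is higher in shSrf NPCs at both stiffnesses (1.19 and 1.29), and Ciart is higher with stiffness in control (0.48) and lower in shSrf NPCs (-0.32).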

How the data were processed

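RNA from 4 libraries, 1 per condition, was prepared with a kit for stranded mRNA. Per the labels and methods, the authors trimmed reads with cutadapt 1.9.1, aligned them to mm10 with TopHat2 2.1.0 and Bowtie2 2.2.8, kept a mapping quality of at least 20 and estimated expression with Cufflinks 2.2.1 (versions from the submitters' processing notes). The deposited values are FPKM per gene, made by the authors, and the study calls them RPKM. The 63 symbols listed more than once (135 of 21997 lines) were left out.

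Log2 ratios of FPKM were taken without a pseudocount for genes above an FPKM of 2 in all 4 libraries, and a 1.1-fold threshold was used, both as in the study. With 1 library per condition no test was made. Depth was estimated from the steps between low FPKM values, on 1101 genes, of which 71.8% lay on whole steps (2% tolerance, with a smallest value of 1 to 3 reads), so it is approximate. The resulting 95% Poisson intervals cover reads only. Transcript length and GC content came from an older annotation, which matched 98.4% of genes above the minimum, and coordinates and promoters from RefSeq (GRCm38.p6). The code was tested on simulated data and run with Python 3.11.15, numpy 2.4.6, pandas 2.3.3 and scipy 1.17.1.

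Named were the 10 clock core genes, Srf, the genes flanking Cry1, the 5 genes nearest to Cry1 in pattern (1 of which, like a few members of the lists, is not reported here), further clock genes past 1.5-fold in any comparison, and Npas2, Nfil3, Tef, Bhlhe40 and Bhlhe41. Further genes of the lists were named after their values were seen. The genes, lists and rules were chosen with earlier results of these data known. The alternatives were other scalings, a pseudocount, other minimums and thresholds, and centring within 50 bins of GC content.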

Additional observations from a re-analysis of the deposited data

Results flagged for a closer look

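Between control and shSrf NPCs, some genes had stiffness ratios of opposite direction, both past 1.1-fold, as 6.01% of all genes above the minimum had. Each value came from a single library, and no such difference was tested. The log2 ratios of 12 to 0.5 kPa differed by 2.58 for Cry1 (1.38 in control and -1.20 in shSrf NPCs) and by 0.81 for Ciart (0.48 and -0.32). Of the genes chosen for a pattern near that of Cry1, they differed by 2.15 for Tmem159 (1.25 and -0.90), 1.42 for 2210013O21Rik (1.21 and -0.21) and 0.66 for D3Ertd751e (0.37 and -0.29). For Npas2 the difference was -1.02 (-0.24 and 0.78), at an FPKM of at most 0.143 and a counting error of 0.74. Other further clock genes below the minimum also had opposite directions. The difference was -2.37 for Ppara (-0.46 and 1.91), at an FPKM of at most 0.806 and a counting error of 0.42. It was -1.67 for Hlf (-0.26 and 1.42, counting error 0.6) and 0.55 for Rorb (0.28 and -0.27, counting error 0.5).

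The same arithmetic gives opposite ratios of shSrf to control NPCs on the 2 matrices. These were 0.62 at 0.5 kPa and -1.53 at 12 kPa for Tmem159 (difference 2.15), 0.16 and -1.26 for 2210013O21Rik (1.42), and -0.54 and 0.48 for Npas2 (-1.02). Ppara, below the minimum as Npas2 was, had -1.52 and 0.86 (-2.37).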

How the results depend on the processing

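Of the log2 ratios of the clock core genes recomputed under other settings, 288 stayed within the 95% counting interval of the reported ratio, 15 moved beyond it, and 2 that were past 1.1-fold changed sign. A further 5, reported within 1.1-fold, also changed sign, all with GC content centred, and are counted among the 288 or the 15. Another minimum cannot alter the ratio of a gene, and the other scalings shift all genes alike. Much of the 288 was thus fixed in advance and is no measure of robustness. The 15 and the 2 all came from the pseudocount or from GC centring. With GC content centred, Per1 at 12 kPa was -0.035 in shSrf against control NPCs instead of 0.25, and the difference between the stiffness ratios of Dbp was 0.0087 instead of -0.16. A pseudocount of 1 brought Cry1 to -1.02 for stiffness in shSrf NPCs, to -2.25 for shSrf against control at 12 kPa and to 2.30 for the difference between the stiffness ratios, since it draws low values together. The genes past 1.1-fold numbered 4 and 5 for stiffness in control and shSrf NPCs and 6 and 8 for shSrf against control at 0.5 and 12 kPa, of 9. In that order they numbered 1, 2, 1 and 2 of 3 with a minimum FPKM of 5, and 1, 1, 1 and 2 of 9 with a threshold of 1.5-fold or of 2-fold. At 1.2-fold they numbered 2 for stiffness in shSrf NPCs and 5 for shSrf against control at 12 kPa. No paired analysis was possible because the 4 conditions were 1 library apiece, and no replicate could be left out. Depth limits the lowest genes, Per2 and Dbp in control NPCs, which rest on 118 to 152 reads.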
